A study of Mus musculus with 34 samples.

Results

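Encorafenib, which inhibits BRAF carrying the V600E mutation, was compared with its solvent DMSO after 5 days in NaJa-D cells, and all 14107 genes of the count table were tested. NaJa-D is a mouse colon carcinoma cell line recovered by peritoneal lavage from a C57BL/6N mouse that carried transplanted colon organoids. It has the genotype VillinCreERT2::BrafV600E/+::Trp53R172H::APCdel. The alleles were recombined with 4-hydroxytamoxifen through a CreERT2 recombinase under the Villin promoter, which is active in intestinal epithelium, and they are carried by the DMSO controls as well. The comparison holds 6 of the 34 RNA-seq libraries of the series, 3 of cells given 0.5 µM encorafenib and 3 of cells given DMSO. Medium with inhibitor or solvent was renewed at days 0, 2 and 4, and RNA was taken at day 5. NaJa-D at day 1 (3 and 3 libraries) and sister lines of the same genotype at day 5 were used to show where the NaJa-D day 5 response differed. The sister lines are NaJa-F (2 encorafenib and 3 DMSO libraries) and NaJa-G (3 and 2). All 34 libraries also entered the model, so the spread behind each p-value is shared over all of its groups. NaJa-D is 1 line, and the labels do not say whether replicates were separate cultures. The p-values therefore measure the spread between replicate libraries across the series, which may be technical.

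BRAF is a kinase at the top of the RAF, MEK and ERK cascade, and the BRAFV600E protein signals without upstream RAS activity. ERK drives transcription of growth genes through ETS and AP-1 factors, and at the same time of its own inhibitors, the Sprouty, SPRED and dual-specificity phosphatase families. In colon epithelium the cascade supports proliferation, and in BRAF-mutant colorectal cancer its inhibition is known to be countered by signals from receptor tyrosine kinases such as EGFR.

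Total counts of the 6 libraries lay between 46007050 and 74510799, and the TMM scaling factors between 1.00 and 1.02. The first principal component of these libraries held 80.6% of the variance and separated DMSO (scores -22.08 to -20.96) from encorafenib (20.6 to 22.7). Between replicates a gene had a median SD of 0.109 log2 CPM in DMSO and 0.0761 log2 CPM in encorafenib. Replicate pairs differed by 10.4 to 40.2 times the variance that counting alone would give. Of 10 defining markers of colon epithelium, all 10 were in the table, with a summed level of 5180 to 5400 CPM in DMSO and 6260 to 6900 CPM in encorafenib. Of the macrophage, lymphocyte, fibroblast or mesothelial, and endothelial markers, 13 of 31 were in the table, and Ptprc, Adgre1, Lyz2, C1qa and Itgam were not. The 3 engineered genes were detected in each library, at 133 to 179 CPM for Apc, 138 to 152 CPM for Trp53 and 35.7 to 47.4 CPM for Braf, and none was called different (limma-voom, adjusted p = 0.284, 0.761 and 0.483). Counts per gene do not tell mutant from wild-type alleles. Per the study, recombination removes only part of Apc, so its level does not show whether the allele was recombined.

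At a Benjamini-Hochberg adjusted p below 0.01 in limma-voom, 4651 of the 14107 genes (33.0%) were called. With encorafenib 2578 genes (18.3%) were higher and 2073 genes (14.7%) were lower. Changes were mostly small. The median absolute log2 fold change of all genes was 0.22, and 778 genes (5.51%) were both called and changed by at least 1 on the log2 scale, of which 502 were higher (3.56%) and 276 lower (1.96%). The 3 libraries of encorafenib lay wholly above or wholly below the 3 of DMSO in 7688 genes (54.5%). Such a separation, where given for a gene below, therefore does not by itself mark that gene out. The median log2 fold change of all genes was 0.01, so a list median is read against a value near 0. The counts called in any list are read against the 18.3% of all genes called higher and the 14.7% called lower. The number of genes given for a list covers only members in the table, which lacks some members of many lists.

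**Figure D1:**
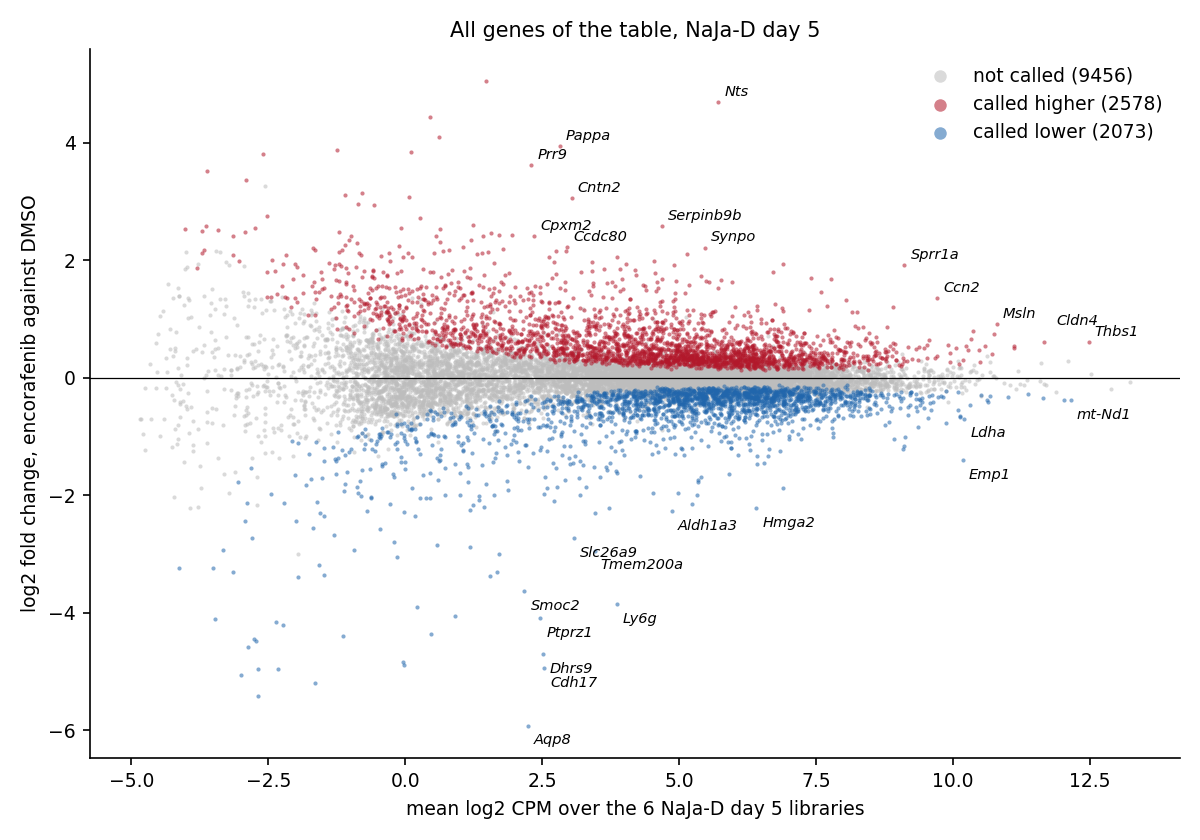
Log2 fold change of encorafenib against DMSO at day 5 in NaJa-D (vertical axis) against the mean log2 CPM of the 6 libraries (horizontal axis), 1 point per gene. Red points are the 2578 genes called higher, blue points the 2073 called lower and grey points the 9456 not called, and the named genes include those with the largest falls (Aqp8 and Cdh17) and the largest rise (Nts) among genes that averaged at least 2 log2 CPM.

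Nts, which encodes the precursor of the gut peptide neurotensin, had the largest rise of the genes that averaged at least 2 log2 CPM. Nts (ENSMUSG00000019890, chr10:102481756-102490486 of GRCm38) was at 8.94, 12.8 and 9.88 CPM in the DMSO libraries and at 263, 271 and 262 CPM in the encorafenib libraries. The means were 10.5 ± 2.00 and 266 ± 5.13 CPM (SD, n = 3 each), a log2 fold change of 4.69 with an SE of 0.13 (limma-voom, adjusted p = 2.37e-21). Pappa, a secreted protease that cleaves insulin-like growth factor binding proteins, was at 2.18, 1.92 and 1.35 CPM in DMSO and at 30.4, 28.3 and 24.2 CPM in encorafenib (log2 fold change 3.94, SE 0.14, limma-voom adjusted p = 2.05e-18). The lowest encorafenib library was 20.5-fold above the highest DMSO library for Nts and 11.1-fold for Pappa.

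The other 13 of the 15 genes with the largest rises, all 15 taken from called genes whose groups do not overlap, had log2 fold changes from 1.97 to 3.61. Several encode secreted, surface or matrix proteins. Prr9, a proline-rich protein encoded beside the cornified envelope genes, went from 0.982, 1.66 and 1.68 CPM to 19.4, 14.9 and 17.1 CPM (log2 fold change 3.61). Cntn2, the cell adhesion molecule contactin 2, went from 3.50, 2.85 and 2.26 CPM to 25.6, 23.8 and 21.5 CPM (3.05). Serpinb9b, a serine protease inhibitor of the B clade, went from 9.72, 11.02 and 10.9 CPM to 65.3, 61.6 and 61.6 CPM (2.58). The carboxypeptidase family member Cpxm2 and the matrix-associated Ccdc80 rose by 2.41 and 2.23 on the log2 scale. Synpo, the actin-binding synaptopodin, was at 20.3, 21.03 and 20.4 CPM in DMSO and at 103, 91.6 and 91.6 CPM in encorafenib (2.21, SE 0.06, limma-voom adjusted p = 2.14e-21). Wnt4, a WNT ligand, was at 7.04, 7.26 and 7.04 CPM in DMSO and at 29.4, 29.5 and 30.02 CPM in encorafenib (2.06, adjusted p = 5.38e-15). For Prr9 the lowest encorafenib library was 8.88-fold above the highest DMSO library, and for Wnt4, the smallest gap of those given by library, 4.05-fold. The remaining members of the 15 were Glipr1, Pdzrn3, Vnn1, Uba7, Rassf9 and Cp, among them the pantetheinase vanin 1 (Vnn1, 2.10), the activating enzyme for the ubiquitin-like ISG15 (Uba7, 2.06) and the ferroxidase ceruloplasmin (Cp, 1.97).

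The largest falls at that level included genes of the absorptive colon. Aqp8, a water channel of surface colonocytes (ENSMUSG00000030762, chr7:123462291-123468004), was at 33.4, 41.0 and 34.4 CPM in DMSO and at 0.498, 0.603 and 0.670 CPM in encorafenib. Its log2 fold change was -5.92 with an SE of 0.34 (limma-voom, adjusted p = 4.61e-14), a 60.4-fold fall. Cdh17, the liver-intestine cadherin (ENSMUSG00000028217, chr4:11758147-11817895), fell from 35.2, 34.1 and 26.6 CPM to 0.942, 1.07 and 1.06 CPM (log2 fold change -4.94, adjusted p = 8.87e-18). Both genes were left at about 1 CPM or less in every encorafenib library, and no library of either group came near the other. Dhrs9, a short-chain dehydrogenase of retinoid metabolism, fell from 30.8, 30.9 and 25.4 CPM to 1.07, 1.06 and 1.19 CPM (-4.70). Ptprz1, a receptor tyrosine phosphatase, fell from 25.0, 22.9 and 20.1 CPM to 1.32, 1.27 and 1.40 CPM (-4.09). Ly6g, a GPI-anchored surface protein whose reads could be shared with related Ly6 genes, fell from 49.6, 59.99 and 56.9 CPM to 3.33, 3.97 and 4.13 CPM (-3.86). Of the DMSO mean, Aqp8 kept 1.63% and Ly6g 6.87%, with the other 3 genes between them.

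Among the other 10 of the 15 largest falls were genes of retinoid synthesis, chromatin and the brush border. Aldh1a3, a retinaldehyde dehydrogenase, was at 64.5, 64.2 and 63.2 CPM in DMSO and at 13.1, 13.7 and 12.9 CPM in encorafenib (log2 fold change -2.27, SE 0.06, limma-voom adjusted p = 3.54e-21). Hmga2, a chromatin architectural protein of fetal and tumour cells, was at 185, 175 and 191 CPM in DMSO and at 36.9, 41.5 and 39.7 CPM in encorafenib (-2.22, adjusted p = 1.71e-21). Vil1, the actin-bundling villin of microvilli, was at 14.04, 13.2 and 13.2 CPM in DMSO and at 3.50, 2.96 and 3.07 CPM in encorafenib (-2.10, adjusted p = 5.97e-18). In each of the 3 genes the DMSO libraries were closely grouped, and the highest encorafenib library was 3.78-fold below the lowest DMSO library for Vil1 and 4.63-fold below it for Aldh1a3. The CreERT2 transgene of these cells is under the promoter of Vil1, and its transcript was not analysed here. Smoc2, a matricellular protein of intestinal stem cells, fell by 3.63, the anion transporter Slc26a9 by 2.73, the neutral sphingomyelinase Smpd3 by 2.21 and the adhesion molecule Nrcam by 2.15 on the log2 scale. Tmem200a (-2.94), Lman1l (-2.30) and the scaffold protein Iqgap2 (-2.001) complete the set.

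**Figure D2:**
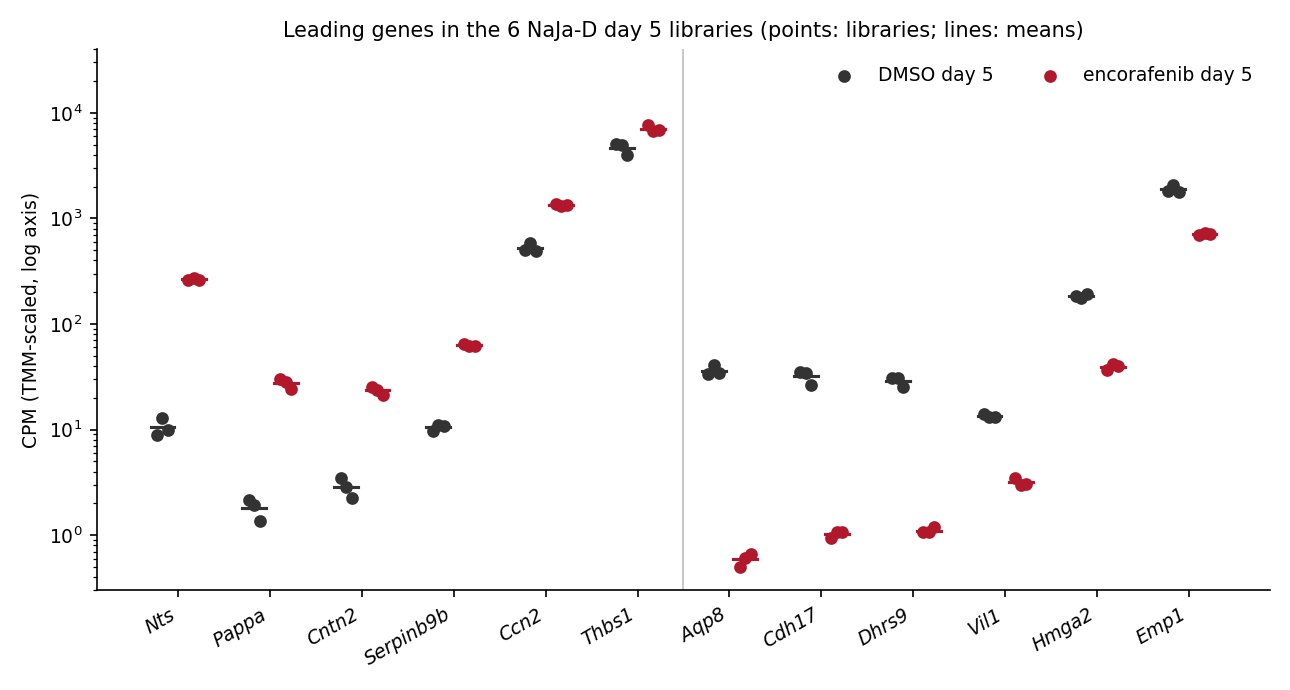
CPM on a log axis of 6 genes that rose (left) and 6 that fell (right) with encorafenib at day 5 in NaJa-D, with 1 point per library, black for DMSO and red for encorafenib, and a line at each mean. The genes were drawn from those chosen for their change, and the ratio of the means runs from 25.2-fold for Nts and 61.4-fold for Aqp8 down to 1.52-fold for Thbs1.

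Other genes changed most in the share of counts they took, which is not corrected for gene length. Thbs1, the matrix glycoprotein thrombospondin 1, had the largest rise in mean CPM, from 4665 ± 601 to 7075 ± 507 CPM (SD, n = 3 each, log2 fold change 0.61, limma-voom adjusted p = 1.22e-07). Claudin 4 (Cldn4, 2656 to 4039 CPM), mesothelin (Msln, 1306 to 2457 CPM), cytochrome P450 reductase (Por, 1344 to 2244 CPM), β-catenin (Ctnnb1, 1828 to 2669 CPM) and keratin 7 (Krt7, 1865 to 2648 CPM) followed with the YAP target Ccn2 and the cornified envelope gene Sprr1a. Sprr1a was at 288, 288 and 281 CPM in DMSO and at 1080, 1039 and 1109 CPM in encorafenib (1.91, SE 0.09, adjusted p = 6.1e-16), with the lowest treated library 3.60-fold above the highest control. The largest loss by share was in mt-Nd1, a mitochondrially encoded subunit of complex I, from 5193 ± 321 to 3990 ± 258 CPM (-0.38, adjusted p = 0.00592), a call lost in 5 of the 15 alternative settings that kept the threshold of 0.01. Emp1, an epithelial membrane protein, was at 1829, 2057 and 1776 CPM in DMSO and at 692, 729 and 718 CPM in encorafenib (-1.40, SE 0.07, adjusted p = 2.2e-15). The desaturase Scd2 (4767 to 3679 CPM), the glycolytic enzymes Pkm (3618 to 2861 CPM, a call lost in 5 settings) and Ldha (1508 to 931 CPM), the transferrin receptor Tfrc (1429 to 895 CPM), filamin A (Flna, 2951 to 2425 CPM, lost in 2 settings) and Igfbp3 (1406 to 893 CPM) made up the rest. Mitochondrial transcripts took 2.31% to 2.68% of counts in DMSO and 2.03% to 2.21% in encorafenib, and 4 of 16 mitochondrially encoded genes were called lower and 0 higher.

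The promoters of Nts and Sprr1a are shown because these 2 of the strongest rises hold the AP-1 motif, TGANTCA, searched on both strands. They are 250 bases before to 50 bases after the start site in RefSeq (GRCm38.p6), written 5′ to 3′ on the strand of the gene, with the motif in capitals. The Nts window is chr10:102490369-102490668 and that of Sprr1a is chr3:92485832-92486131, both of the minus strand.
Nts: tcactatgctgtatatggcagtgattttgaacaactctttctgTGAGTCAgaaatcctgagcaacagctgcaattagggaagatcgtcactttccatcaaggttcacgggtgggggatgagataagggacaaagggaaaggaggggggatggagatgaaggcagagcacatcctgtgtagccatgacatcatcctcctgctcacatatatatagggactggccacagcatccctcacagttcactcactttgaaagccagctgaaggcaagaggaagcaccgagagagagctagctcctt
Sprr1a: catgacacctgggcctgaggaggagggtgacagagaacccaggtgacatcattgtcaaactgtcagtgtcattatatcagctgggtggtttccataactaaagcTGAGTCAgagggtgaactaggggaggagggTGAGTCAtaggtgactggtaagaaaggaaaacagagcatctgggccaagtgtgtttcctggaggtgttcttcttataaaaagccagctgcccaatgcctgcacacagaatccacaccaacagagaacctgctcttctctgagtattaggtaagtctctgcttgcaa
The motif begins 207 bases before the start site in Nts, and 146 and 116 bases before it in Sprr1a. It was present in 7.81% of all 32851 promoters of that length and in 6.67% of the 10225 promoters of genes of the count table. Among genes called higher by at least 1 on the log2 scale 11% of 356 promoters held it, among genes called lower by at least 1 it was 14.3% of 196, and among genes not called 6.27% of 6648. The ETS motif CCGGAAG went the other way, with 1.69% in the strong rises, 7.14% in the strong falls and 21.8% in genes not called. These matches are descriptions of the letters in the window and do not show that a factor was bound.

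The ERK cascade itself was read from 10 feedback inhibitors. The Sprouty and SPRED inhibitors fell in part, while the dual-specificity phosphatases had DMSO-like levels at day 5. Of the 10, 4 were called lower and 1 higher, against 14.7% and 18.3% of all genes, with a median log2 fold change of -0.20. Spry4 was at 7.27, 6.38 and 5.81 CPM in DMSO and at 2.33, 2.86 and 2.89 CPM in encorafenib (log2 fold change -1.26, limma-voom adjusted p = 5.64e-07). Spred2 was at 119, 105 and 111 CPM in DMSO and at 68.3, 68.1 and 62.4 CPM in encorafenib (-0.75, adjusted p = 7.72e-11). Neither gene had any overlap between groups. Spred1 (-0.45) and Spry2 (-0.35) fell less, and Spry1 rose from 47.6, 48.1 and 49.8 CPM to 71.9, 74.3 and 76.9 CPM (0.62, adjusted p = 8.35e-09). Dusp6, the phosphatase that inactivates ERK in the cytoplasm, was at 101, 101 and 99.4 CPM in DMSO and at 103, 100 and 104 CPM in encorafenib (0.03, SE 0.07, adjusted p = 0.776). Its groups overlapped, and Dusp4 (0.18), Dusp5 (0.12), Dusp7 (-0.05) and Spred3 (-0.43) were not called either.

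ETS factors that ERK induces were lower in part. Etv5 was at 25.5, 25.1 and 26.3 CPM in DMSO and at 8.11, 8.73 and 7.97 CPM in encorafenib (log2 fold change -1.62, SE 0.09, limma-voom adjusted p = 2.51e-14). Etv4 was at 90.7, 94.8 and 96.0 CPM in DMSO and at 37.1, 41.9 and 44.0 CPM in encorafenib (-1.20, SE 0.07, adjusted p = 1.12e-14). The highest treated library was 2.87-fold below the lowest control for Etv5 and 2.06-fold below it for Etv4. Of the 8 ETS factors listed 4 were lower and 2 higher (median -0.11). Over the alternatives that kept the threshold 3 to 4 were lower and 0 to 2 higher. Of 21 immediate early and AP-1 factors 8 were called higher, against 18.3% of all genes, 2 were lower and 11 were not called, with a median of 0.28. Egr1, a zinc finger factor induced by ERK, was at 4.55, 4.39 and 3.89 CPM in DMSO and at 13.7, 13.2 and 12.8 CPM in encorafenib (1.63, SE 0.14, adjusted p = 1.7e-10), which was a rise without overlap. The stress factor Atf3 (0.95), the AP-1 subunit Fosl2 (0.71) and Ier3 (0.46) rose, while the AP-1 subunit Fosl1 (-0.45) and Klf4 (-0.35) fell. Junb was also called higher (0.75), a call lost in 8 of the alternative settings, and Myc, at 185 ± 19.7 CPM in DMSO and 156 ± 2.61 CPM in encorafenib, was not called (adjusted p = 0.0114).

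Among 18 core genes from RAS to ERK, 2 were higher and 1 lower, against 18.3% and 14.7% of all genes, with a median of 0.00. Nras rose by 0.27 on the log2 scale, and Rasa1, a GTPase-activating protein that turns RAS off, fell by 0.21, a call lost in 5 of the alternative settings. The ligands of EGFR changed more than its receptors. Areg (amphiregulin) was at 27.97, 29.3 and 21.3 CPM in DMSO and at 40.8, 37.2 and 34.03 CPM in encorafenib (log2 fold change 0.53, limma-voom adjusted p = 3.98e-05). Hbegf (heparin-binding EGF-like factor) was at 67.9, 71.2 and 62.7 CPM in DMSO and at 95.04, 99.7 and 96.0 CPM in encorafenib (0.53, adjusted p = 9.82e-07), and Ereg (epiregulin) rose by 0.44. The 3 ligands were higher in all treated libraries, whereas betacellulin (Btc, -0.55) and the EGFR-degrading Lrig1 (-0.53) were lower in all of them. The receptors Egfr (0.07), Erbb2 (0.11) and Erbb3 (0.04) were not called. Over the 14 genes of the EGFR list 4 were higher and 3 lower, with a median of 0.09. Of the 19 other receptor kinases 4 rose and 5 fell, against 18.3% and 14.7% of all genes, with Fgfr3 (1.30, from 2.19 ± 0.302 to 5.29 ± 0.437 CPM) at the top and Met, the receptor of hepatocyte growth factor, falling by 0.43.

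Cell cycle genes fell together by moderate amounts. Of 30 mitosis genes, 28 were called lower and 0 higher (23 to 28 over the alternatives that kept the threshold), with a median log2 fold change of -0.40. Of 30 DNA replication genes, 25 were lower and 0 higher (25 to 26), with a median of -0.46, against 14.7% of all genes called lower. Mki67, the proliferation antigen Ki-67, was at 1017, 838 and 797 CPM in DMSO and at 484, 528 and 467 CPM in encorafenib (log2 fold change -0.84, SE 0.10, limma-voom adjusted p = 7.56e-08). Top2a, topoisomerase II of dividing cells, was at 621, 571 and 581 CPM in DMSO and at 348, 358 and 348 CPM in encorafenib (-0.75, adjusted p = 1.62e-12). The groups did not overlap, and the treated mean was 55.8% of the control mean for Mki67 and 59.4% for Top2a. In a bulk sample, fewer dividing cells and less of these transcripts in each cell cannot be told apart. Of 20 G1 regulators 6 were lower and 2 higher. E2f2, which activates S phase genes, fell from 23.3, 20.98 and 21.3 CPM to 8.996, 9.88 and 8.66 CPM (-1.25), cyclin E2 (Ccne2) by 0.91 and cyclin D1 (Ccnd1), an ERK-dependent cyclin, by 0.54 on the log2 scale. The kinase inhibitors Cdkn2b (0.56) and Cdkn1a (0.39) rose. Of 18 p53 targets 6 were higher and 0 lower (median 0.20, or 0.098 without encorafenib replicate 2). The antiproliferative Btg2 was among them, with 4.89, 4.41 and 4.22 CPM in DMSO and 12.8, 12.2 and 13.1 CPM in encorafenib (1.49). The cells carry mutant Trp53, and the study reports that the wild-type allele was lost at higher passages. The part of p53 in these rises was not tested.

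Growth metabolism fell with the cell cycle. Of 26 glycolysis and hypoxia genes 19 were lower and 1 higher, with a median log2 fold change of -0.37, and 12 were called without DMSO replicate 3. Slc2a1, the glucose transporter GLUT1, was at 291, 328 and 277 CPM in DMSO and at 168, 160 and 164 CPM in encorafenib (-0.86, limma-voom adjusted p = 6.05e-10). Slc16a3, a lactate exporter, was at 24.7, 28.3 and 22.6 CPM in DMSO and at 9.94, 10.1 and 9.93 CPM in encorafenib (-1.32). Hexokinase 2 (Hk2, -0.82), Bnip3 of mitophagy (-0.79) and lactate dehydrogenase A (Ldha, -0.69) fell as well. None of the 5 genes had overlapping groups, a separation seen in 54.5% of all genes. Of 24 cholesterol synthesis genes 16 were lower and 0 higher (12 to 17 over the alternatives), with a median of -0.30. Among them Insig1, which retains the sterol sensor in the endoplasmic reticulum, went from 328, 318 and 256 CPM to 196, 194 and 190 CPM (-0.63). Of 30 ribosome biogenesis genes 24 were lower and 0 higher (median -0.38), including nucleolin (Ncl, -0.55), the pseudouridine synthase dyskerin (Dkc1, -0.67) and the RNA polymerase I subunit Polr1b (-0.60). The 30 ribosomal protein genes had 0 called in either direction (median -0.07), and so did the 30 nuclear-encoded respiratory chain subunits (median 0.04). At an unadjusted p below 0.05, 3 of the former and 5 of the latter passed in limma-voom, and edgeR, DESeq2 and limma-trend called 0 of either at the adjusted threshold.

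The lysosome list moved the other way. Of 29 lysosome and autophagy genes 19 were higher and 1 lower (15 to 22 higher over the alternatives), with a median of 0.31. Hexa, a subunit of lysosomal hexosaminidase, was at 32.4, 39.3 and 31.0 CPM in DMSO and at 75.2, 71.1 and 77.6 CPM in encorafenib (log2 fold change 1.14, limma-voom adjusted p = 4.5e-12). Ctsd, the protease cathepsin D, was at 1181, 1450 and 1180 CPM in DMSO and at 1877, 1707 and 1973 CPM in encorafenib (0.55, adjusted p = 2.63e-05). All treated libraries lay above all controls in both. The autophagy genes Map1lc3a (0.74) and Sqstm1 (0.37) rose, and cathepsin L (Ctsl, -0.31) was the member that fell. The promoter of Ctsd (chr7:142387778-142388077, minus strand) is shown with the E-box CACGTG, the core of the element read by lysosomal gene regulators, in capitals.
Ctsd: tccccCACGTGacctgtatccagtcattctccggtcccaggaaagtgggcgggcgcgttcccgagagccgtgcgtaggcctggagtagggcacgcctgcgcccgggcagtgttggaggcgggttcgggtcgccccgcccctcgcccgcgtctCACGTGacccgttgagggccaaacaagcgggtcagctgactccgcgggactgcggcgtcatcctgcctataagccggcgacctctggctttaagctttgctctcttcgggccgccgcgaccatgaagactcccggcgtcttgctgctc
The E-box begins 245 and 98 bases before the start site. Of 21 list members with a RefSeq promoter 9 (42.9%) held it, against 11.6% of genes of the table. Of these 9, 6 were called higher, 1 lower and 2 not called, and of the 12 without it 8 were higher and 4 not called. The E-box was also in 4 of 12 promoters (33.3%) of the solute carrier list and 7 of 25 (28%) of the ribosome biogenesis list. Most calls in these 2 lists were lower. The lysosome list was chosen for lysosome and autophagy genes, and the matches do not show that a factor was bound.

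Amino acid genes under ATF4 were lower in part. Of 28 ATF4 and unfolded protein response genes 10 fell and 1 rose (median -0.18), and 6 were called without encorafenib replicate 1. Slc7a11, the cystine importer of glutathione synthesis, was at 259, 236 and 195 CPM in DMSO and at 64.8, 61.8 and 59.3 CPM in encorafenib (log2 fold change -1.88, limma-voom adjusted p = 1.06e-15), the lowest value in that list. The serine synthesis enzyme Phgdh fell by 0.57. Of 24 targets of the antioxidant factor NRF2 6 rose, among them the glutathione transferase Gsta4 (0.82), and 5 fell, among them the quinone reductase Nqo1 (-0.88), against 18.3% and 14.7% of all genes. Of 21 fatty acid genes 7 were higher and 6 lower, against the same shares of all genes. The carnitine transferases Cpt2 (0.63) and Cpt1a (0.57), which admit fatty acids to mitochondrial oxidation, rose, and the elongase Elovl6 (-0.50) and the desaturases Fads1 (-0.39) and Scd1 (-0.38) fell. Of 32 listed solute carriers and water channels 20 were in the table, and of these 12 were lower and 4 higher (median -0.49). Slc12a2, the basolateral chloride importer, went from 826 to 366 CPM on average (-1.17), and the water channel Aqp5 fell by 1.99 on the log2 scale. The 23 insulin, PI3K and FOXO genes had 5 higher and 4 lower (median 0.07), shares close to the 18.3% and 14.7% of all genes.

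Genes of the mature colon split. Of 30 listed colonocyte and enterocyte genes 16 were in the table. Of these 8 were lower and 5 higher, with a median log2 fold change of -0.37. Over the alternatives that kept the threshold 2 to 5 were higher and 8 lower. Besides Aqp8, Cdh17, Dhrs9, Vil1 and Emp1, Krt20, a keratin of surface cells, fell from 20.3, 20.96 and 19.7 CPM to 9.35, 8.98 and 8.72 CPM (-1.17, limma-voom adjusted p = 2.49e-13). The microvillar protocadherin Cdhr2 (-1.17) and the adhesion molecule Ceacam1 (-0.42) fell too. Carbonic anhydrase 2 (Car2) rose from 16.0, 19.2 and 17.6 CPM to 30.9, 30.8 and 29.4 CPM (0.79), and Anpep, a brush border aminopeptidase, by 1.44. The treated libraries were therefore all below the controls for one subset of these genes and all above for the other. Among 16 intestinal identity factors 3 fell and 2 rose, shares close to the 14.7% and 18.3% of all genes, and 11 were not called. Log2 fold changes in this list ran from -1.51 to 2.48, so the falls given next are not a trait of the list. Cdx2, the homeobox factor of intestinal identity, went from 24.3, 20.7 and 21.5 CPM to 12.4, 14.1 and 12.8 CPM (-0.75, adjusted p = 5.75e-07), and Prdm1 from 24.4, 20.6 and 19.6 CPM to 8.12, 7.47 and 7.11 CPM (-1.51). The hedgehog ligand Ihh of surface epithelium fell from 10.8, 9.38 and 7.65 CPM to 3.68, 4.11 and 3.85 CPM (-1.24). Of 16 WNT feedback and stem cell targets 6 were lower and 0 higher (median -0.19, or -0.32 without DMSO replicate 3). Beside Smoc2 these were Notum (-0.95), Tnfrsf19 (-0.72), Znrf3 (-0.54), Tcf7 (-0.43) and Cd44 (-0.22, lost in 6 settings), while Lgr5 (2.42 and 2.91 CPM on average) and Axin2 (320 and 284 CPM) were not called. In the Notch list (median -0.26, or -0.40 without DMSO replicate 3) 4 of 13 were lower, with the ligands Jag2 (-0.65) and Jag1 (-0.55) among them, and 2 were higher, the receptor Notch3 (0.94) and Lfng (0.54). Goblet genes were represented by 4 of 15 and enteroendocrine genes by 3 of 16, with 1 and 2 called lower and Nts as the only member called higher.

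Targets of YAP, the effector of the Hippo pathway, and markers of fetal or regenerating intestine mostly rose. Of the 21 genes 12 were called higher and 4 lower, with a median log2 fold change of 0.40. Ccn2, a matricellular protein, was at 498, 588 and 493 CPM in DMSO and at 1363, 1311 and 1339 CPM in encorafenib (1.35, SE 0.08, limma-voom adjusted p = 6.39e-14). Ccn1, its paralog, was at 265, 286 and 261 CPM in DMSO and at 436, 473 and 476 CPM in encorafenib (0.77, adjusted p = 4.72e-11). Ankrd1, an ankyrin repeat protein, was at 58.9, 65.1 and 71.8 CPM in DMSO and at 122, 124 and 127 CPM in encorafenib (0.93, adjusted p = 1.38e-11). The groups did not overlap in any of the 3 genes, with gaps of 2.23-fold for Ccn2, 1.53-fold for Ccn1 and 1.69-fold for Ankrd1. Amotl2, a scaffold of the Hippo pathway, was at 227, 193 and 200 CPM in DMSO and at 288, 289 and 278 CPM in encorafenib (0.47, adjusted p = 1.91e-06). The fetal marker Anxa1 (0.56) rose. The secreted phosphoprotein Spp1 fell from 145, 163 and 156 CPM to 56.1, 55.6 and 59.0 CPM (-1.44), the connexin Gja1 by 0.37 and Il1rn by 0.44, whereas Clu (530 and 532 CPM on average) and Ly6a (2637 and 2405 CPM) were not called.

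The promoters of Ccn1, Ankrd1 and Amotl2 are shown because the 3 genes rose together and hold the TEAD motif CATTCC, in capitals. TEAD proteins are the DNA-binding partners of YAP. The windows are chr3:145649936-145650235 (minus strand), chr19:36119795-36120094 (minus strand) and chr9:102717554-102717853 (plus strand), and in Ankrd1 the motif lies on the opposite strand and reads GGAATG.
Ccn1: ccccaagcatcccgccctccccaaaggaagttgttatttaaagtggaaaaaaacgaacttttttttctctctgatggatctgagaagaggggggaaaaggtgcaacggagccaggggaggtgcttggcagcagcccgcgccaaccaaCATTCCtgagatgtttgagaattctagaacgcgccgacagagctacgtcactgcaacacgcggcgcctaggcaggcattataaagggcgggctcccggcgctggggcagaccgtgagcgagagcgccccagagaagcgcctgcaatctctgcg
Ankrd1: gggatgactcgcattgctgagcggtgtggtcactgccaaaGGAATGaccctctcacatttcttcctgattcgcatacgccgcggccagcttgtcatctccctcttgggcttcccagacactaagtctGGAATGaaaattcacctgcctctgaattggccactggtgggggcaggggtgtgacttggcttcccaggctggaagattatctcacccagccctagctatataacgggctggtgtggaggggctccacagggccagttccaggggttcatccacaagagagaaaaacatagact
Amotl2: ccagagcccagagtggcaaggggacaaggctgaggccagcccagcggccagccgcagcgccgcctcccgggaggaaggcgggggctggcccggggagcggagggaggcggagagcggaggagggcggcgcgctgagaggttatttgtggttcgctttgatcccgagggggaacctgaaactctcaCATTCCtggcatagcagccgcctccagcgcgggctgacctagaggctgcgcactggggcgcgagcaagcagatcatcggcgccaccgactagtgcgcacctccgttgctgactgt
The motif begins 103 bases before the start site in Ccn1, 210 and 123 bases before it in Ankrd1 and 65 bases before it in Amotl2. Of 13 list members with a RefSeq promoter 9 (69.2%) held it, against 14.7% of genes of the table, 17.9% of genes called higher and 13.2% of genes called lower. Of the 9, 7 were called higher, and 2, Axl (-0.36, lost in 5 settings) and Il1rn, lower. Of the 4 without it 2 were lower and 2 not called. Genes were put on this list as YAP targets or fetal markers, so its motif share is not independent evidence. The matches do not show that a factor was bound, and the part of YAP or TEAD in these rises was not tested.

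Junction and keratin genes rose in part, and the epithelial cadherin was not called. Of 30 such genes 12 were higher and 2 lower (median 0.20). Cldn1, a tight junction claudin, was at 1.44, 2.35 and 1.34 CPM in DMSO and at 9.12, 8.51 and 8.62 CPM in encorafenib (log2 fold change 2.42, limma-voom adjusted p = 4.02e-13). Krt8 was at 956, 1054 and 1063 CPM in DMSO and at 1580, 1507 and 1781 CPM in encorafenib (0.66, adjusted p = 4.59e-06). Both genes were higher in every treated library, and Krt7, Krt18, Krt19 and Krt80 were called higher too (0.43 to 0.80). Cdh1, E-cadherin, was at 1295, 1330 and 1137 CPM in DMSO and at 1401, 1349 and 1365 CPM in encorafenib, and was not called (0.13, SE 0.07, adjusted p = 0.145). Of 20 mesenchymal genes 8 were higher and 2 lower (median 0.27), with 5 to 9 higher and 1 to 3 lower over the alternatives. Vim, the intermediate filament vimentin, was at 92.0, 85.4 and 84.7 CPM in DMSO and at 36.0, 44.5 and 42.4 CPM in encorafenib (-1.09, adjusted p = 1.55e-10). Most of the mesenchymal genes that rose had low levels, such as the matrix protein Sparc (1.21 and 3.92 CPM on average) and the collagen Col1a1 (1.25 and 3.18 CPM). The summed level of 7 fibroblast and mesothelial markers, of which Dcn, Col1a1 and Col3a1 are also members of these lists or the matrix list, was 5.42 to 5.94 CPM in DMSO and 14.3 to 15.3 CPM in encorafenib, with 4 of 7 called higher, and its part in these results was not tested.

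Matrix genes changed in both directions, and their proteases mostly rose. Of 27 collagens, laminins and matrix proteins 10 were higher and 6 lower (median log2 fold change 0.27). Dcn, the small proteoglycan decorin, was at 0.229, 0.238 and 0.321 CPM in DMSO and at 4.30, 3.40 and 4.04 CPM in encorafenib (3.84). The basement membrane chain Col4a5 was at 25.4, 29.3 and 22.7 CPM in DMSO and at 84.5, 73.5 and 81.4 CPM in encorafenib (1.64, limma-voom adjusted p = 1.19e-16). Both were higher in all treated libraries. Col18a1 went from 734, 744 and 622 CPM to 347, 313 and 356 CPM (-1.04), and the laminin chains Lama3 (-0.62) and Lamb1 (-0.69) fell, while Lamb3 was not called. Of 17 matrix proteases and inhibitors 10 were higher and 1 lower (median 0.54, or 0.82 without encorafenib replicate 2). The aggrecanase-family protease Adamts1 rose from 190, 166 and 153 CPM to 426, 424 and 410 CPM (1.32), the membrane-type metalloprotease Mmp15 from 127, 120 and 103 CPM to 331, 316 and 309 CPM (1.46) and the inhibitor Timp3 from 84.2, 81.4 and 70.9 CPM to 186, 179 and 170 CPM (1.18). The urokinase gene Plau rose by 1.04 and Adam8 by 1.53, and Mmp13 fell by 0.80. The AP-1 motif was present in 5 of 12 promoters of this list (41.7%) and in 5 of 14 of the colonocyte list (35.7%), against 6.67% of genes of the table. Both lists are named here for their high shares, after 5 motifs were searched in all lists. The AP-1 motif was in 0 of 8 promoters of the ERK feedback list and 0 of 15 of the immediate early list. These matches do not show that a factor was bound.

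Some ligands that pattern tissue changed as well, in lists read against the 18.3% of all genes called higher and the 14.7% called lower. Of 21 TGF-beta and BMP genes 7 were higher and 4 lower, with the ligands Tgfb2 (log2 fold change 1.45) and Tgfb3 (0.98) at the top and Tgfbi, a matrix protein induced by TGF-beta, at the bottom (19.1, 20.6 and 15.8 CPM to 6.35, 6.03 and 6.98 CPM, -1.51). Of 30 axon guidance molecules, which also act in epithelia, 10 were higher (33.3%) and 5 lower (16.7%), the latter close to the share of all genes. Sema3a (1.15) and Sema3d (1.85) rose. Slit2 went from 162, 146 and 120 CPM to 52.2, 52.9 and 49.2 CPM (-1.46) and Sema5a from 52.4, 46.2 and 38.3 CPM to 13.3, 11.9 and 10.0 CPM (-1.95), with every treated library below every control in both.

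Most genes of antigen presentation and interferon response that were in the table rose. The table held 17 of 21 listed class I genes, without Tap1, Psmb8, Psmb9 and Nlrc5. It held 16 of 25 listed interferon response genes, and Isg15, Ifit1, Ifit3 and Mx1 were among the absent ones. Among 17 class I genes 11 were called higher and 0 lower (median log2 fold change 0.62), and of 16 interferon response genes 14 were higher and 0 lower (median 0.61), against 18.3% and 14.7% of all genes. Tapbp, which loads peptides on class I molecules, was at 134, 149 and 126 CPM in DMSO and at 332, 302 and 320 CPM in encorafenib (1.23, limma-voom adjusted p = 2.38e-12). B2m, the light chain of class I molecules, was at 95.6, 116 and 103 CPM in DMSO and at 171, 178 and 184 CPM in encorafenib (0.76, adjusted p = 5.73e-10). H2-K1, a classical heavy chain, was at 427, 454 and 378 CPM in DMSO and at 528, 517 and 578 CPM in encorafenib (0.37, adjusted p = 0.000376). The 3 genes were higher in every treated library, and H2-D1 (0.27) was not called. Heavy chain genes are near-identical, so that reads may be split among them. Ddx58, the RNA sensor RIG-I, rose from 25.2, 25.7 and 26.5 CPM to 53.4, 50.6 and 48.0 CPM (0.97, adjusted p = 4.78e-15). The interferon regulatory factor Irf7 rose from 1.52, 2.10 and 1.84 CPM to 5.08, 4.43 and 4.64 CPM (1.39). Neither list had a member called lower in the 15 alternative fits that kept the threshold of 0.01.

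Other immune genes were mixed. Of 14 checkpoint and regulator genes 4 were higher and 5 lower, against 18.3% and 14.7% of all genes (median -0.08). Havcr2, the receptor TIM-3, fell from 23.4, 21.9 and 21.2 CPM to 10.2, 10.5 and 10.9 CPM (log2 fold change -1.07, limma-voom adjusted p = 1.43e-10), and Pdcd1lg2, the PD-1 ligand PD-L2, from 1.39, 1.45 and 1.21 CPM to 0.142, 0.236 and 0.130 CPM (-2.94, adjusted p = 2.12e-08). Galectin 9 (Lgals9, 1.14) and Vtcn1 (0.99), both inhibitory ligands, rose, and Cd274, which encodes PD-L1, was not called (-0.11, at 3.11 and 2.88 CPM). Of 26 listed chemokines and secreted factors 21 were in the table, without Ccl5, Ccl7, Ccl20, Il6 and Il11. Of these 21 genes 15 were higher and 2 lower (median 0.52). The macrophage growth factor Csf1 went from 24.5, 24.1 and 22.5 CPM to 39.9, 41.5 and 37.9 CPM (0.75), Cxcl16 rose by 0.56 and the neutrophil chemokine Cxcl5 by 0.41, and the angiogenic factor Vegfa fell by 0.51. The 2 of 7 macrophage markers in the table summed to 3.64 to 4.42 CPM in DMSO and 5.78 to 5.86 CPM in encorafenib, and Trac, the 1 of 8 lymphocyte markers, to 4.42 to 5.66 and 8.79 to 9.05 CPM, and their part in these lists was not tested.

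Of 25 BCL2 family and death genes 11 were higher and 3 lower, against 18.3% and 14.7% of all genes (median log2 fold change 0.28). The BH3 genes Pmaip1 (NOXA, from 29.0, 28.3 and 30.9 CPM to 56.7, 56.2 and 55.4 CPM, 0.93) and Bid (0.73) rose. Bcl2l11, which encodes BIM, was not called (-0.14). Casp12 rose by 2.10 from 1.18 CPM on average, and Bcl2 fell by 0.50.

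**Figure D3:**
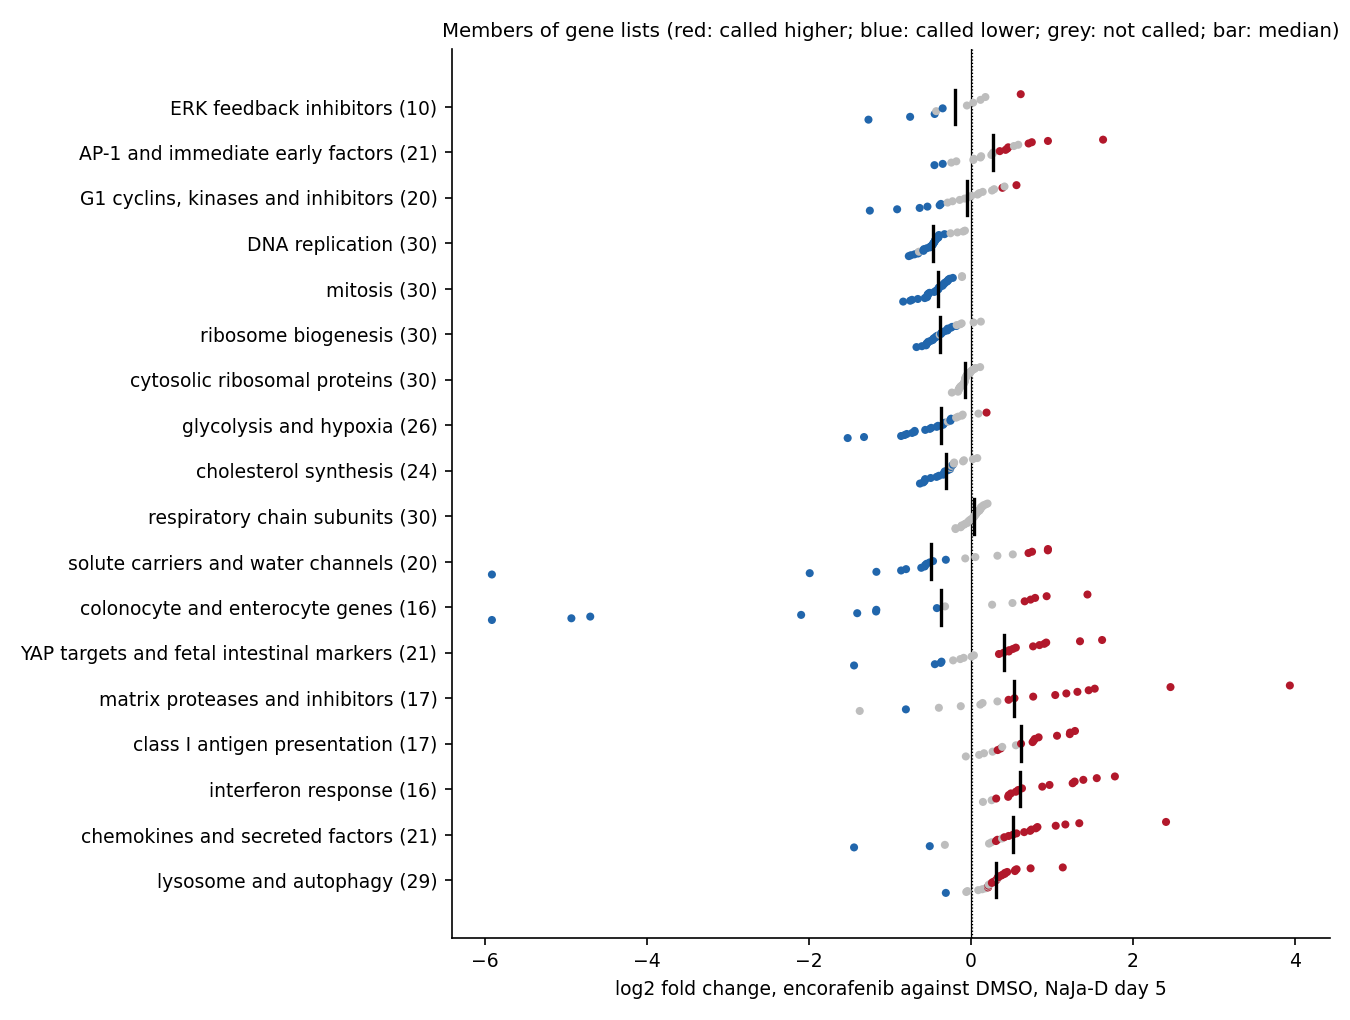
Log2 fold change of encorafenib against DMSO at day 5 in NaJa-D for the members of 18 gene lists, with the number of members in brackets, red for genes called higher, blue for genes called lower, grey for genes not called and a bar at the median. Replication, mitosis, ribosome biogenesis, glycolysis and cholesterol lists lie mostly below 0, class I, interferon and lysosome lists mostly above 0, and ribosomal protein and respiratory chain genes cluster at 0.

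Day 5 and day 1 of the same line were compared to ask which parts of the response changed with time. The 2 comparisons share no library. Of the 2578 genes higher at day 5, 1851 (71.8%) were also higher at day 1, which is 55.3% of the 3347 genes (23.7%) higher there, and of the 2073 lower genes 1478 (71.3%) were also lower, or 49.5% of 2988 (21.2%). All 15 of the strongest rises were called higher at day 1, and 14 of the 15 strongest falls lower, the exception being Vil1. The log2 fold change itself differed in 1029 genes (7.29%), of which 389 were more positive at day 5 (2.76%) and 640 more negative (4.54%). The count is not stable, since it was 3104 without the NaJa-D encorafenib day 1 replicate 3, 581 without replicate 1 and 645 without replicate 2 of that group, 587 without the DMSO day 1 replicate 3, 644 without the DMSO day 5 replicate 1 and 671 without the encorafenib day 5 replicate 3. Without the encorafenib day 1 replicate 3 the split was 1523 more positive and 1581 more negative, and with only the groups compared in the model 261 genes differed, 79 more positive and 182 more negative. The DMSO day 1 library with replicate number 3 carries the name NaJa-G in its cell line field and was kept under its title. With this library the NaJa-D DMSO day 1 group had 12.7 ± 1.03 CPM of Smoc2 and 31.1 ± 1.96 CPM of Ptprz1 (SD, n = 3). NaJa-G in DMSO at day 5 had 379 ± 14.4 and 1.24 ± 0.583 CPM (SD, n = 2).

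Among the genes with a larger rise at day 5, Nts had 92.6 ± 10.8 CPM in encorafenib at day 1 against 266 ± 5.13 at day 5 (SD, n = 3 each), and its log2 fold change went from 2.70 to 4.69 (difference 1.99, limma-voom adjusted p = 4.0e-09). Pappa (2.36 and 3.94), Cntn2 (1.56 and 3.05) and the claudin Cldn1 (0.83 and 2.42) also rose further. Egr1 differed by 1.47, with a fold change of 0.16 at day 1 and 1.63 at day 5, and its DMSO level was 13.4 ± 1.39 CPM at day 1 and 4.27 ± 0.346 CPM at day 5. The encorafenib levels of Egr1 were 15.1 ± 0.591 and 13.3 ± 0.456 CPM, so the DMSO groups were the ones that lay apart. Spsb1, an adaptor of a ubiquitin ligase, was lower by 0.44 at day 1 and higher by 1.29 at day 5.

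A subset of genes, some of them of surface epithelium, changed the other way. Other genes of the colonocyte list were not called different between the days. Among these were Aqp8 (-6.05 at day 1 and -5.92 at day 5), Dhrs9 (-4.36 and -4.70) and Emp1 (-1.54 and -1.40). Vil1 went from 6.36 ± 0.243 to 10.2 ± 0.224 CPM with encorafenib at day 1 (log2 fold change 0.68), and from 13.5 ± 0.466 to 3.18 ± 0.285 CPM at day 5 (-2.10), a difference of -2.78 (SD, n = 3 each, limma-voom adjusted p = 1.85e-16). Krt20 (0.36 at day 1 and -1.17 at day 5) and Ihh (0.48 and -1.24) had the same turn of sign. Psca, a GPI-anchored surface protein, rose from 3.83 ± 0.43 to 80.4 ± 4.42 CPM at day 1 and from 7.83 ± 0.491 to 24.3 ± 2.27 CPM at day 5 (difference -2.76, adjusted p = 4.82e-14). The galectin Lgals4 (3.94 at day 1, 0.74 at day 5), the secreted Ly6-type protein Slurp1 (2.94 and -0.42) and Fer1l4 (4.08 and 1.04) were other early rises with a smaller or opposite value at day 5, and the day 5 calls of Lgals4 and Slurp1 were lost in 2 and 3 of the settings. Mean DMSO levels also differed between day 1 and day 5 for Lgals4 (1.16 and 4.21 CPM), Slurp1 (11.6 and 23.1 CPM) and Fer1l4 (1.275 and 5.12 CPM). The colonocyte list as a whole had a median of 0.26 at day 1 and -0.37 at day 5, with 6 of 16 genes more negative at day 5, against 4.54% of all genes, and 0 more positive.

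Lists also differed in time. Ribosomal protein genes had a median log2 fold change of -0.55 at day 1, where all 30 were called lower, and of -0.07 at day 5, where 0 were called, and 19 of the 30 were more positive at day 5 against 2.76% of all genes. Respiratory chain subunits went from a median of -0.28 with 16 of 30 lower to 0.04 with 0 of 30. The composition of the libraries differed between the days as well. Mitochondrial transcripts took 6.59% to 8.01% of counts in DMSO and 4.965% to 5.82% in encorafenib at day 1, and the TMM factors there were 0.876 to 0.981. The part of this in the shift of these lists was not tested. The ERK feedback list went from -0.58 to -0.20, with 3 of 10 genes more positive at day 5, one of them Dusp6 (-0.55 at day 1 and 0.03 at day 5, difference 0.58, limma-voom adjusted p = 0.000311). The EGFR list had 5 of 14 genes more positive at day 5, with Areg at -0.52 at day 1 and 0.53 at day 5. Lysosome genes went from a median of 0.13 to 0.31, with Hexa at 0.43 and 1.14. Mitosis genes had a median of -0.56 at day 1 and -0.40 at day 5, and 8 of 30 were more positive at day 5.

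**Figure D4:**
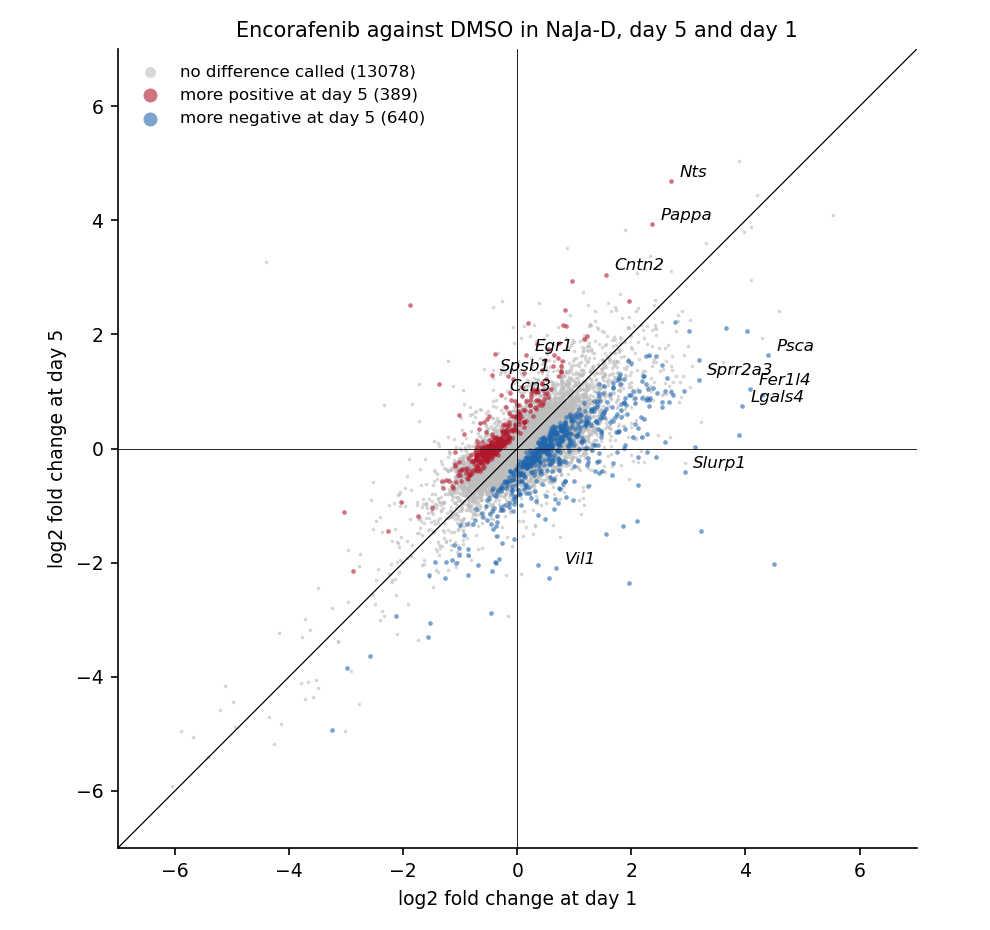
Log2 fold change of encorafenib against DMSO in NaJa-D at day 5 (vertical axis) against day 1 (horizontal axis), 1 point per gene, with the line of equality. Red points are the 389 genes with a more positive and blue points the 640 with a more negative value at day 5, and Vil1 and Slurp1 lie where the sign turned.

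The day 5 response of NaJa-D was also set beside that of the 2 sister lines, which had 2567 (18.2%) called genes in NaJa-F and 7502 (53.2%) in NaJa-G. Of the genes higher in NaJa-D 988 (38.3%) were higher in NaJa-F, which is 72.2% of the 1368 (9.70%) there, and 2024 (78.5%) were higher in NaJa-G, or 50.3% of 4023 (28.5%). Of the lower genes 702 (33.9%) were lower in NaJa-F, 58.5% of 1199 (8.50%), and 1473 (71.1%) in NaJa-G, 42.3% of 3479 (24.7%). The log2 fold change differed from NaJa-F in 1248 genes (8.85%) and from NaJa-G in 3089 genes (21.9%). Of the latter, 1026 moved in the same direction in both lines with the smaller size in NaJa-D, and 71 with the larger size in NaJa-D. Of the 1248 genes that differed from NaJa-F, 650 were called in NaJa-D alone, 210 moved in the same direction with the larger size in NaJa-D and 54 with the smaller. NaJa-F encorafenib and NaJa-G DMSO had 2 libraries each, so these differences rest on fewer samples, and the count against NaJa-F was 771 without NaJa-F encorafenib replicate 1.

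Single genes differed from the sister lines by the test of the difference itself. Prr9 rose by 3.61 here and by 0.59 in NaJa-F (difference 3.02, limma-voom adjusted p = 1.39e-09), and Ptprz1 fell by 4.09 in NaJa-D against a value of -0.60 in NaJa-F (difference -3.49, adjusted p = 5.91e-06), where its DMSO level was only 0.796 ± 0.123 CPM (SD, n = 3). Cdh17 fell by 4.94, against falls of 2.33 (NaJa-F) and 2.84 (NaJa-G), and the difference was -2.60 and -2.09. The lipase inhibitor Angptl4 rose by 1.17, against values of -1.10 (NaJa-F) and -1.36 (NaJa-G). For Areg the log2 fold change of 0.53 stood against -0.52 (NaJa-F) and -2.65 (NaJa-G), with 3.51 ± 0.344 CPM left in the encorafenib libraries of NaJa-G against 37.4 ± 3.39 CPM in those of NaJa-D. The glycerol channel Aqp3 fell by 0.61 in NaJa-D and 4.95 in NaJa-G (difference 4.34, adjusted p = 1.14e-17). Serpinb11 rose by 0.56 in NaJa-D and 4.12 in NaJa-G, and the adaptor Afap1l2 by 1.23 and 6.28.

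Several lists differed from NaJa-F. The colonocyte list had 7 of 16 genes more negative and 2 more positive in NaJa-D, against 4.08% and 4.77% of all genes. The median of the mitosis list was -0.40, against -0.09 in NaJa-F, and 14 of its 30 genes were more negative in NaJa-D, against 4.08% of all genes. The log2 fold change of Mki67 was -0.84 against -0.09 in NaJa-F. Glycolysis and hypoxia genes had medians of -0.37 and -0.07, with 11 of 26 more negative in NaJa-D, among them Slc16a3 (-1.32 and 0.01) and Slc2a1 (-0.86 and -0.07). Against NaJa-G, the mesenchymal list had a median of 0.27 in NaJa-D and 2.03 in NaJa-G, with 14 of 20 genes more negative in NaJa-D, against 14.1% of all genes. The collagen and laminin list had 21 of 27 genes more negative in NaJa-D and 0 more positive, the junction list 18 of 30 and the YAP and fetal list 14 of 21. Cholesterol genes fell further in NaJa-G (median -0.68), with 11 of 24 more positive in NaJa-D, against 7.82% of all genes. The interferon list had medians of 0.61, 0.79 and 1.59 for NaJa-D, -F and -G, and the class I list 0.62, 0.38 and 0.94.

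**Figure D5:**
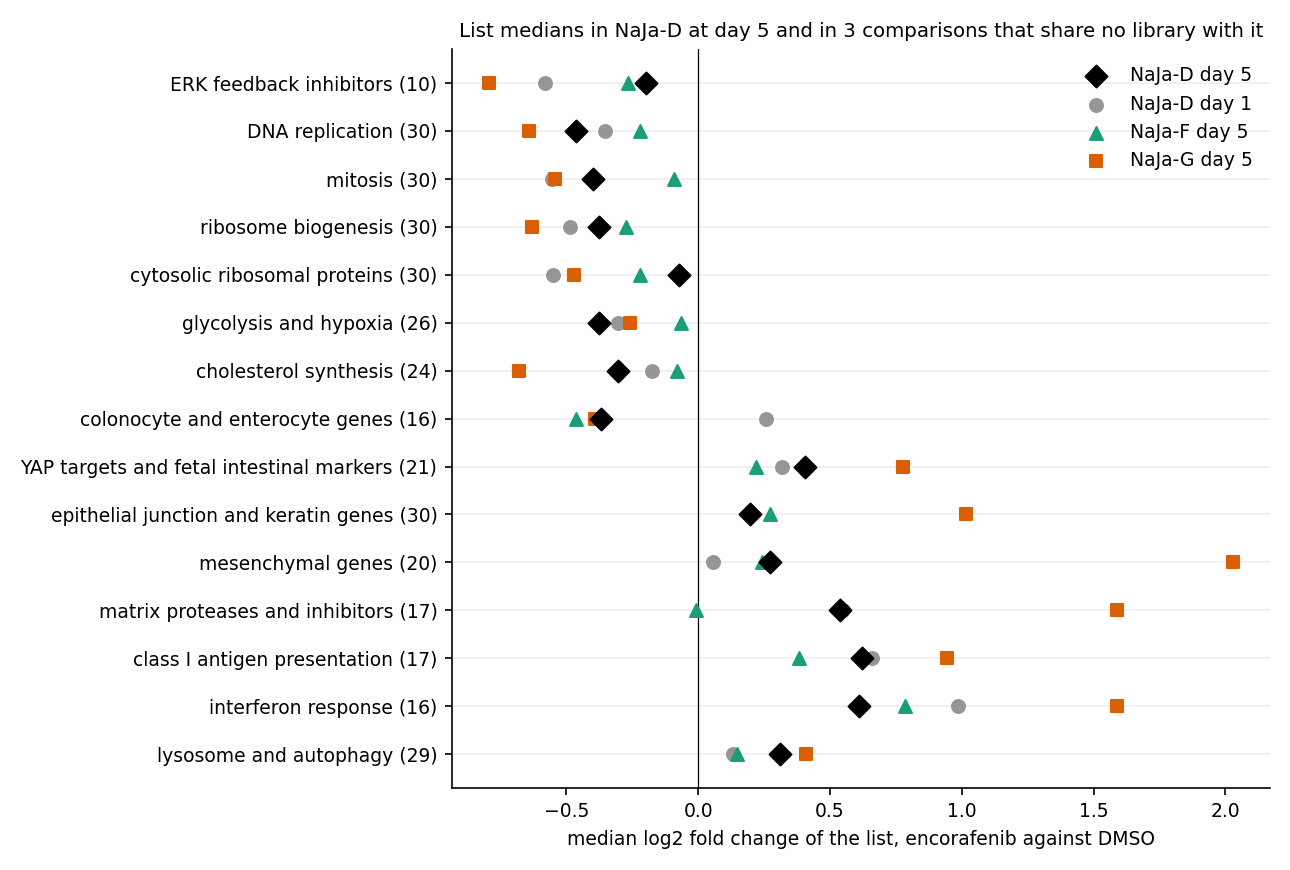
Median log2 fold change of encorafenib against DMSO for 15 gene lists (number of members in brackets), with black diamonds for NaJa-D day 5, grey circles for NaJa-D day 1, green triangles for NaJa-F day 5 and orange squares for NaJa-G day 5. The mesenchymal list runs from 0.05 in NaJa-D day 1 to 2.03 in NaJa-G, while the replication list is below 0 in all 4 comparisons (-0.22 to -0.64).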

How the data were processed

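RNA was sequenced in 34 libraries of mouse cell lines. Reads were trimmed with Trimmomatic 0.39 and aligned with STAR 2.5.2b to GRCm38 by the authors, per the processing notes, and the table they deposited gives unnormalized read counts of each gene. The counter and strand setting are not given in the sources used here. The table holds 14107 genes, with a smallest summed count of 360. Symbols and positions of 14064 genes came from GENCODE M21.

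A single model with 12 group means was fitted to all 34 libraries with limma 3.58.1 (voom weights, TMM factors from edgeR 4.0.16) in R 4.3.3. Two-sided p-values were adjusted by Benjamini and Hochberg's method across the whole table, and a gene was called below 0.01. CPM are scaled with TMM factors, and SDs are over libraries. CPM are not corrected for gene length, so levels are compared within a gene. Response differences are interaction contrasts of the same model. Depth was 46007050 to 80121299 counts per library.

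The members and the 45 gene lists were chosen with earlier results of these data known, and some listed genes were shown by the study from these samples, so the lists are not independent evidence. Named genes are the 15 highest and 15 lowest log2 fold changes among called genes with a mean of at least 2 log2 CPM and no overlap, the 8 largest rises and the 8 largest falls in mean CPM, list members, and the 6 most positive and the 6 most negative response differences per contrast among genes called in both. The alternatives comprised DESeq2 1.42.0, edgeR's quasi-likelihood test, limma-trend, RLE scaling, scaling by library size only, filterByExpr, no filter, a replicate block, only the groups compared, an adjusted p below 0.05, an absolute log2 value of at least 1 and leaving out each library. Leaving out libraries of the other groups was added after seeing the data. The procedure was run on simulated counts in which a small set of genes changed in the NaJa-D encorafenib day 5 group only. Lines and days did not differ there, so that run checked the code and not the calls made here. Promoters (300 bases) are from RefSeq GRCm38.p6, for 10225 genes of the table. Results for a few listed genes are not reported here.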

Additional observations from a re-analysis of the deposited data

Results flagged for a closer look

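The response to encorafenib at day 5 in NaJa-D was tested against 3 other responses, and each value here is such a tested difference of log2 fold changes (limma-voom, adjusted p below 0.01).

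Against day 1 of the same line 1029 genes differed. The most positive were Nts (1.99), Spsb1 (1.74), Pappa (1.58), Cntn2 (1.49), Egr1 (1.47) and the matricellular Ccn3 (1.21, from -0.28 at day 1 to 0.93 at day 5). The most negative were Slurp1 (-3.35), Lgals4 (-3.21), Fer1l4 (-3.04), Vil1 (-2.78), Psca (-2.76) and the cornified envelope gene Sprr2a3 (-1.97, from 3.18 to 1.21).

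Against NaJa-F at day 5 the number was 1248. More positive in NaJa-D were Prr9 (3.02), Nts (2.57), the chemokine Cxcl15 (2.52, with 1.01 in NaJa-D and -1.51 in NaJa-F), Pdzrn3 (2.33), Angptl4 (2.26) and Sprr2h (2.19, with 0.66 and -1.54). More negative were Ptprz1 (-3.49), Ly6g (-2.76), Cdh17 (-2.60), Aqp8 (-2.56, with -5.92 and -3.36), Iqgap2 (-2.19) and Smpd3 (-2.12).

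Against NaJa-G at day 5 the number was 3089. More positive in NaJa-D were Sprr2h (4.49), Aqp3 (4.34), Areg (3.18), the membrane serine protease Tmprss11b (2.63, with -0.84 in NaJa-D and -3.48 in NaJa-G), Angptl4 (2.53) and the chemokine receptor Ccr1 (2.49, with -0.75 and -3.24). More negative were Afap1l2 (-5.05), Mgam2-ps (-4.02, with 1.08 and 5.09), Klhdc7a (-3.68, with 1.06 and 4.74), the aspartate acetyltransferase Nat8l (-3.58, with 0.60 and 4.19), Serpinb11 (-3.57) and Smpd3 (-3.53, with -2.21 and 1.32). Reads of Sprr2a3, Sprr2h and Ly6g could be shared with close paralogs. None of these named differences lost its call in the alternatives that kept the threshold, while the day 5 call of Cxcl15 itself was lost in 1 of them.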

How the results depend on the processing

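The 4651 genes called at day 5 in NaJa-D became 3877 to 4182 when 1 of the 6 libraries was left out, 4677 with edgeR, 4846 with DESeq2, 4663 with limma-trend, 4523 with RLE scaling and 4442 with only the groups compared, and filterByExpr removed no gene. With an absolute log2 value of at least 1, 778 were called at day 5, and the response differences had 181 genes against day 1, 279 against NaJa-F and 1034 against NaJa-G. At an adjusted p below 0.05 the differences had 2401, 2207 and 4642 genes. With only the groups compared the difference from day 1 had 261 genes. Leaving out 1 library gave 581 to 3104 genes against day 1, 771 to 1308 against NaJa-F (771 without NaJa-F encorafenib replicate 1, where the lone library left is assumed to vary like the others) and 2375 to 3147 against NaJa-G. Of the genes that differed from NaJa-G 35.7% were more positive in NaJa-D, and 48.6% when scaled by library size only.

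With a replicate block the counts were 4211 at day 5 and 801, 782 and 2379 in the differences. Replicate numbers were shared across groups, but the deviations of same-numbered libraries correlated at 0.036, -0.27 and 0.21, and not every library correlated best with its own number, so the numbers were not taken as pairs. The cause of these shifts was not tested. Of 210 named genes 11 lost the day 5 call in at least 1 of the 15 alternatives that kept the threshold and had no minimum size of change, and no called value changed sign. With 3 libraries per group, small changes may be missed.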
